A study of Rattus norvegicus with 12 samples.

Results

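The natriuretic peptide system was followed through 8 genes: 3 ligands (Nppa, Nppb and Nppc), 2 convertases (Corin and Furin) and 3 receptors (Npr1, Npr2 and Npr3). They were taken by symbol from the 18483 genes of the deposited tables. In the order just given, their gene identifiers there were 24602, 25105, 114593, 289596, 54281, 24603, 116564 and 25339. Of the 8 genes, 7 passed the filter on low counts and were tested; Nppc, with at most 5 counts in a sample, did not.

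RNA-seq had been run on neonatal rat ventricular myocytes (NRVMs) of Sprague-Dawley rats, in 4 groups of 3 samples. Cells received either siNeg, a control siRNA, or siSlc39a2, an siRNA against the zinc importer Slc39a2, and 12 h later were left untreated or given phenylephrine (PE), an alpha1-adrenergic agonist that induces hypertrophy, for 36 h by the labels. The groups are called siNeg, siNeg PE, siSlc39a2 and siSlc39a2 PE, and all were transfected and kept in the same insulin-transferrin-selenium medium. The study's methods give a longer time in PE than the labels do. The series describes the samples of a group as independent biological replicates, but does not say which samples shared a preparation of pups. The p-values measure the spread between these samples. The myocytes had been enriched from neonatal ventricles by density centrifugation, so other heart cells can remain.

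Natriuretic peptides are hormones that heart muscle cells release under load and neurohumoral stress. Nppa encodes atrial natriuretic peptide (ANP) and Nppb brain natriuretic peptide (BNP); both are made as propeptides, which the serine protease corin and the proprotein convertase furin can cleave. ANP and BNP signal through Npr1, a membrane guanylyl cyclase that makes cGMP, while C-type natriuretic peptide, the product of Nppc, signals through the related cyclase Npr2, and Npr3 lacks a cyclase domain and clears all of these peptides. Nppa and Nppb are expressed in ventricular muscle before birth, decline afterwards and return in hypertrophy, so both serve as hypertrophy markers in NRVM cultures.

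Each library held 24065539 to 28603854 counts. Slc39a2, the knockdown target, was counted 50, 50 and 59 times in the siNeg libraries against 21, 11 and 2 times after knockdown, and with PE 95, 198 and 182 times against 31, 25 and 38 times. Its log2 fold change with knockdown was -2.35 without PE and -2.33 with PE. PE itself raised Slc39a2 by 1.47 in siNeg and by 1.49 after knockdown. Against siNeg, siSlc39a2 PE stood at -0.86 for Slc39a2 (edgeR adjusted p = 0.0646). Cardiomyocyte markers made up the bulk of the marker signal, with 9 of 9 genes present. In CPM (counts scaled to a fixed library size) they summed to 45230 to 46510 in siNeg and 34010 to 35320 in siSlc39a2. With PE the sums were 43350 to 47040 in siNeg PE and 38240 to 39210 in siSlc39a2 PE. Both with and without PE, the sums were lower with knockdown, without overlap. At an edgeR adjusted p below 0.05, knockdown lowered 5 of the 9 without PE (26.4% of all genes) and 4 with PE (28.1%), and raised none. Without PE, Myh6 fell most, by 1.10 on the log2 scale, from a mean of 15860 to 7407 CPM. Tnnt2, Myl2 and Myh7 moved by 0.08, 0.09 and -0.05. The part of these markers in the levels of Nppa, Nppb and Corin was not tested. The 9 fibroblast markers were also present and summed to 13900 to 18410 CPM in siNeg, 5392 to 5698 in siSlc39a2, 9216 to 11810 in siNeg PE and 3638 to 5025 in siSlc39a2 PE. The 6 mural cell markers summed to 2519 to 2622 CPM in siNeg, 1063 to 1136 in siSlc39a2, 1573 to 1942 in siNeg PE and 1485 to 1594 in siSlc39a2 PE. The 8 endothelial markers summed to 17.3 to 27.3 CPM over all samples. In these bulk samples, fewer cells of a type and less RNA of some or all of its marker genes per cell cannot be told apart.

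Per unit of transcript length, Nppa was the highest member in every group. Levels are given as FPKM (fragments per kilobase of transcript, scaled to library size), which allows genes to be set side by side. In siNeg the mean FPKM was 146 for Nppa, 82.5 for Furin, 14.0 for Nppb, 11.7 for Npr2, 9.99 for Corin, 3.10 for Npr1, 0.58 for Npr3 and 0.11 for Nppc, and the sample values of Nppb and Npr2 overlapped. In siSlc39a2 PE the order was Nppa (7135), Nppb (2752), Furin (80.4), Npr2 (5.02), Corin (2.70), Npr1 (1.62), Npr3 (0.533) and Nppc (0.0133). The ligand Nppb had thus passed Furin, and the 2 cyclase receptors stood lower than in siNeg. Both also held with each treatment alone. Mean FPKM of Nppb and Furin was 109 and 82.5 in siSlc39a2, and 546 and 77.1 in siNeg PE.

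**Figure D1:**
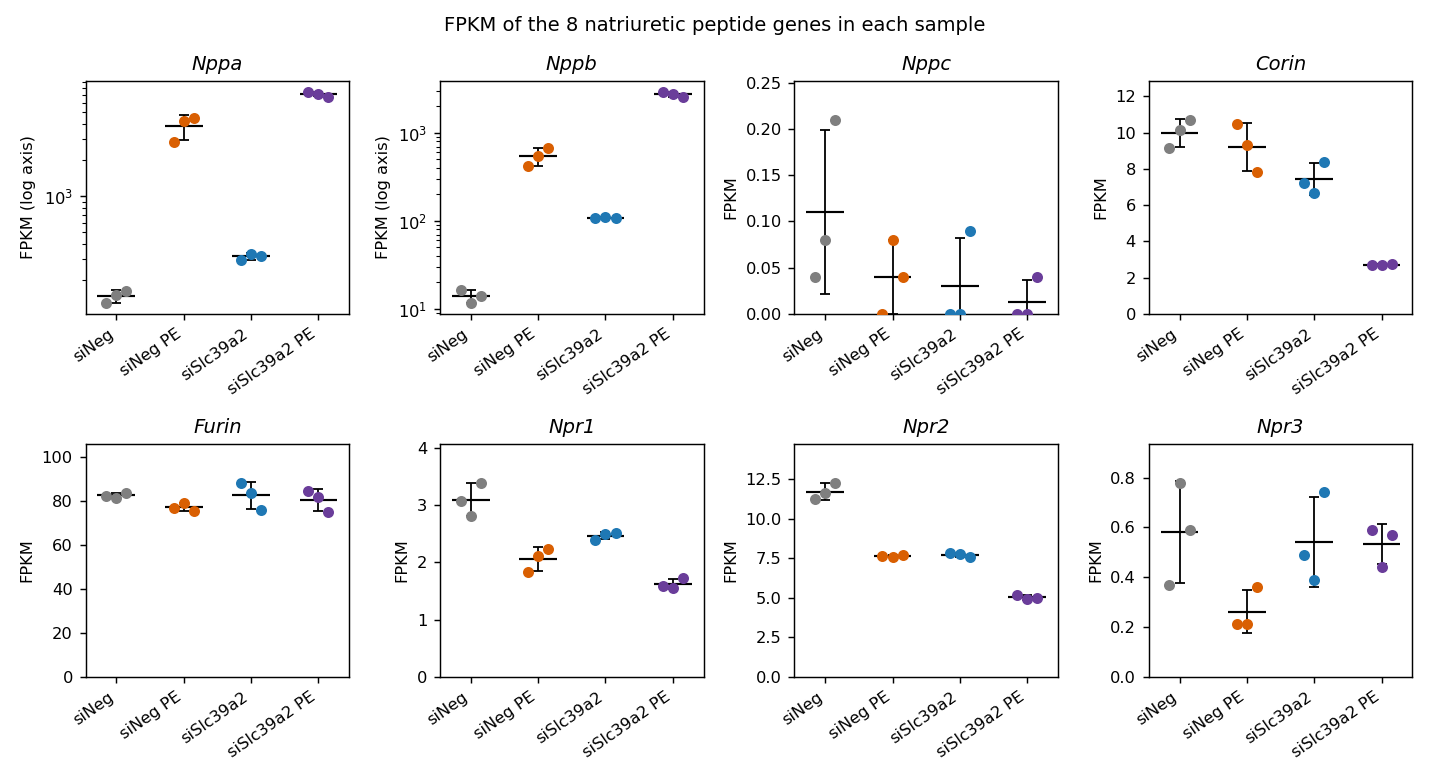
FPKM of the 8 genes in each sample (points) of the 4 groups, with the mean and SD of 3 samples, and a log axis where a gene's panel is labelled so. Nppa and Nppb step up in the order siNeg, siSlc39a2, siNeg PE and siSlc39a2 PE, while the Corin samples of siSlc39a2 PE lie together near 2.70.

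Tests were run on counts with edgeR's quasi-likelihood F-test, adjusted by the Benjamini-Hochberg method over 13967 genes, and a gene was called changed at an adjusted p below 0.05. With PE in siNeg cells, 5 of the 7 tested members changed, 2 up and 3 down, where 49.7% of all genes changed, 24% up and 25.7% down. With knockdown alone 5 of 7 changed, 2 up and 3 down, where 49.2% of all genes did, 22.8% up and 26.4% down. With knockdown in the presence of PE it was again 2 up and 3 down, against 57.3% of all genes, 29.2% up and 28.1% down. PE after knockdown also gave 2 up and 3 down, against 60% of all genes, 30.7% up and 29.3% down. For both treatments against neither, 2 were up and 3 down, where 75.3% of all genes changed, 38% up and 37.3% down. For the interaction, the difference of the knockdown effect with and without PE, 1 of 7 changed, none up and 1 down, where 3.61% of all genes did, 1.73% up and 1.88% down. The members called by direction were few, and their shares are to be read against this background. A log2 fold change beyond 1 in either direction was in addition reached by 2 members with PE (6.6% of all genes), 1 with knockdown (9.78%), 2 with knockdown in the presence of PE (11.6%), 3 with PE after knockdown (10.5%), 5 with both (29.4%) and 1 in the interaction (0.988%). Comparisons that share a group share its samples, so their results are not independent of one another.

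**Figure D2:**
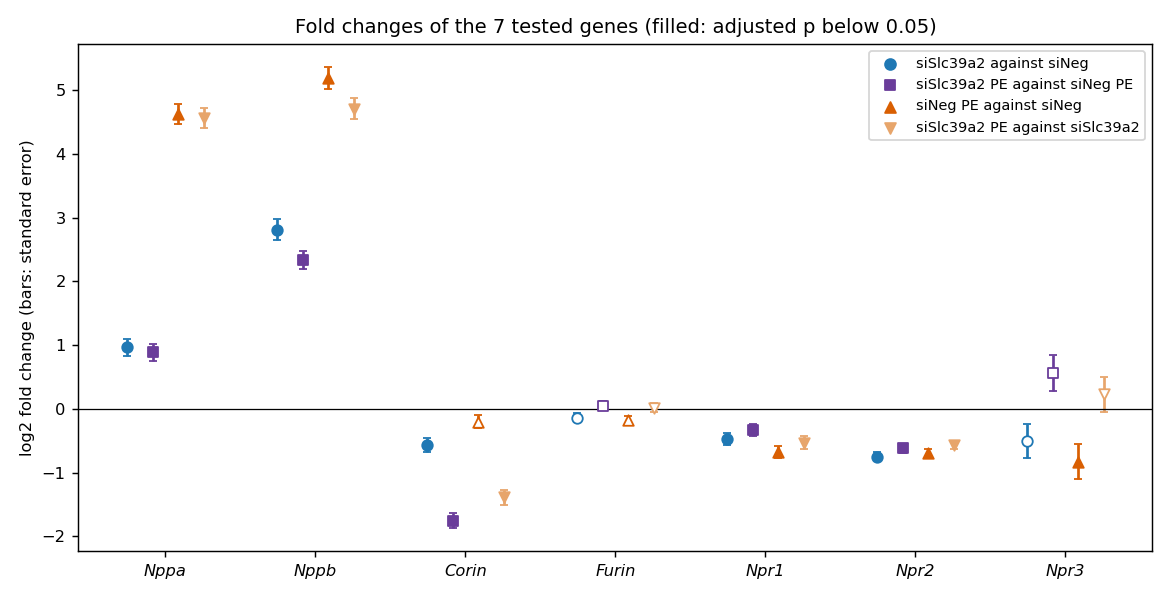
Log2 fold change (y axis, with bars of 1 standard error on each side) of the 7 tested genes in the knockdown comparisons without and with PE and the PE comparisons without and after knockdown, from the edgeR fit of all 12 samples; filled markers have an adjusted p below 0.05. Nppa and Nppb lie above 0 and Npr1 and Npr2 below it in the 4 comparisons, and Corin runs from -0.20 to -1.75.

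Nppa and Nppb lie next to each other in the rat genome, and the 250 bases before each start site are shown because both genes moved together. They are RefSeq sequences of build GRCr8, which is not the build Rnor_6.0 named for the deposited files. Capitals mark motif matches found on either strand.
Nppa, chr5:163711934-163712183, plus strand: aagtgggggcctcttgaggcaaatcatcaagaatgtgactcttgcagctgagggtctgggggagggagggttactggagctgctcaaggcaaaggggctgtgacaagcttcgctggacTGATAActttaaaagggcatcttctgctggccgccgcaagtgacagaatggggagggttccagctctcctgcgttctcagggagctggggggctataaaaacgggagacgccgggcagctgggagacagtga
Nppb, chr5:163699758-163700007, plus strand: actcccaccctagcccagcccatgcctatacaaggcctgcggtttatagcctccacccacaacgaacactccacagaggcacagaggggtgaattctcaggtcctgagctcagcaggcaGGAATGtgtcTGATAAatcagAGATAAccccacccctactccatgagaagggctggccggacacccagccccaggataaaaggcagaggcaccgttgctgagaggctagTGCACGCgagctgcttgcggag
The Nppa window holds 1 GATA core (TGATAA) at -132 from the start. The Nppb window holds 2 GATA cores, TGATAA at -121 and AGATAA at -110, a TEAD motif read on the reverse strand (GGAATG) at -131 and a metal response element core (TGCACGC) at -22, and none of the 4 matches overlap. The GATA form was searched as AGATAA, as well as with a final G (AGATAG), with a first T (TGATAA) or with both (TGATAG). The TEAD form was CATTCC, and the metal response element was searched as TGCACNC or, in its other form, TGCGCNC; the CArG box, AP-1 (TGANTCA) and NKX2-5 (TNAAGTG) forms had no match in either window. Among 33469 RefSeq promoter windows of the same length, 27% held a GATA core, 12.1% a TEAD motif, 20.6% a metal response element, 1.5% a CArG box, 6.34% AP-1 and 9.89% NKX2-5. These matches describe letters only. Furin and Npr2 had no entry in the promoter table.

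Nppa rose with PE and with knockdown, and was highest with both. Its FPKM was 127, 149.8 and 162 in siNeg, 291, 331 and 318 in siSlc39a2, 2815, 4205 and 4524 in siNeg PE, and 7453, 7159 and 6792 in siSlc39a2 PE. No 2 groups overlapped. The log2 fold change was 4.63 with PE in siNeg (SE 0.16, edgeR adjusted p = 8.51e-10) and 4.56 with PE after knockdown (SE 0.16, adjusted p = 5.59e-10). Knockdown raised it by 0.96 without PE (SE 0.14, adjusted p = 9.02e-05) and by 0.89 with PE (SE 0.13, adjusted p = 0.000127). Against siNeg, siSlc39a2 PE was 45.9-fold higher. By mean FPKM, Nppa ranked 683rd of the 18483 genes in siNeg, 340th in siSlc39a2, 8th in siNeg PE and 2nd in siSlc39a2 PE.

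Nppb moved the same way with larger steps. Its FPKM was 16.3, 11.6 and 14.2 in siNeg, 109, 111 and 107 in siSlc39a2, 419, 548 and 671 in siNeg PE, and 2922, 2785 and 2548 in siSlc39a2 PE. Again no groups overlapped, and the siSlc39a2 samples lay close together. PE raised it by 5.19 on the log2 scale in siNeg (SE 0.17, edgeR adjusted p = 8.51e-10) and by 4.71 after knockdown (SE 0.16, adjusted p = 5.59e-10). Knockdown raised it by 2.81 without PE (SE 0.17, adjusted p = 2.37e-08) and by 2.33 with PE (SE 0.14, adjusted p = 4.19e-08). Both treatments together put it 183-fold above siNeg, the 24th largest log2 rise of 13967 genes, with Nppa 82nd. Its rank by mean FPKM went from 4997th in siNeg to 983rd in siSlc39a2, 209th in siNeg PE and 12th in siSlc39a2 PE.

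Nppc, the ligand of Npr2, was at the limit of detection. It had 8 counts in all over the 3 siNeg samples, 3 over siNeg PE, 2 over siSlc39a2 and 1 over siSlc39a2 PE. A level of 3 counts in a library corresponds to 0.102 to 0.118 CPM, and a difference between groups was not detectable at this depth.

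The balance of both cardiac ligands shifted towards Nppb. The FPKM of Nppb was 12.8%, 7.74% and 8.80% of that of Nppa in siNeg, 37.3%, 33.4% and 33.6% in siSlc39a2, 14.9%, 13.0% and 14.8% in siNeg PE, and 39.2%, 38.9% and 37.5% in siSlc39a2 PE. All 6 samples with knockdown lay above all 6 without. The mean log2 ratio was -3.39 ± 0.38 (SD, n = 3) in siNeg, -1.53 ± 0.09 in siSlc39a2, -2.81 ± 0.11 in siNeg PE and -1.38 ± 0.03 in siSlc39a2 PE. Knockdown raised it by 1.65 on average over both PE states (exact permutation test within PE states, two-sided, p = 0.005, the smallest that 400 arrangements allow; adjusted p = 0.01 over 4 tests), by 1.86 without PE and 1.44 with PE. PE raised it by 0.36 (exact permutation test within siRNA groups, p = 0.005, adjusted p = 0.01), by 0.57 in siNeg and 0.15 after knockdown. Without siNeg PE replicate 1 or replicate 3 the PE difference was 0.35 in either case, and the exact permutation p was 0.075.

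**Figure D3:**
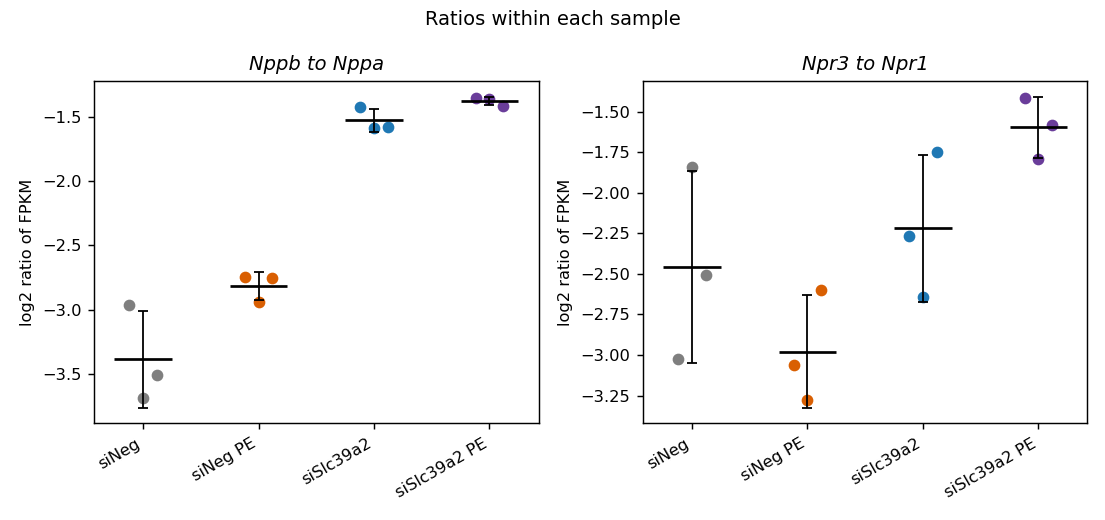
Log2 ratio of FPKM in each sample (points) for Nppb to Nppa and for Npr3 to Npr1 in the 4 groups, with the mean (long line) and SD of 3 samples. The Nppb to Nppa ratio of the samples with knockdown lies above that of the samples without, while several groups overlap for Npr3 to Npr1.

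Both ligands lay above the sum of the separate effects of PE and knockdown and nearer to their product. On the linear scale, the PE gain in Nppa was 2653 CPM in siNeg and 4904 CPM in siSlc39a2. The sum of the separate gains predicted 2871 CPM in siSlc39a2 PE, and 5121 CPM was measured, an excess of 2251 ± 398 CPM (SE). The product of the separate folds predicted 5394 CPM, and the interaction on the log2 scale was -0.07 (SE 0.19, edgeR adjusted p = 0.906), with an interval of 2 SE on each side from -0.46 to 0.31. For Nppb the sum predicted 349 CPM, the product 2098 CPM, and 1509 CPM was measured. The excess over the sum was 1160 ± 81.4 CPM (SE), and the measured level was 0.72 of the product. Its log2 interaction was -0.48 (SE 0.21), with an unadjusted p of 0.0441 and an edgeR adjusted p of 0.295, and an interval from -0.90 to -0.05. Over the alternative settings its value ran from -0.63 to -0.28 and its adjusted p from 0.0919 to 0.562.

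**Figure D4:**
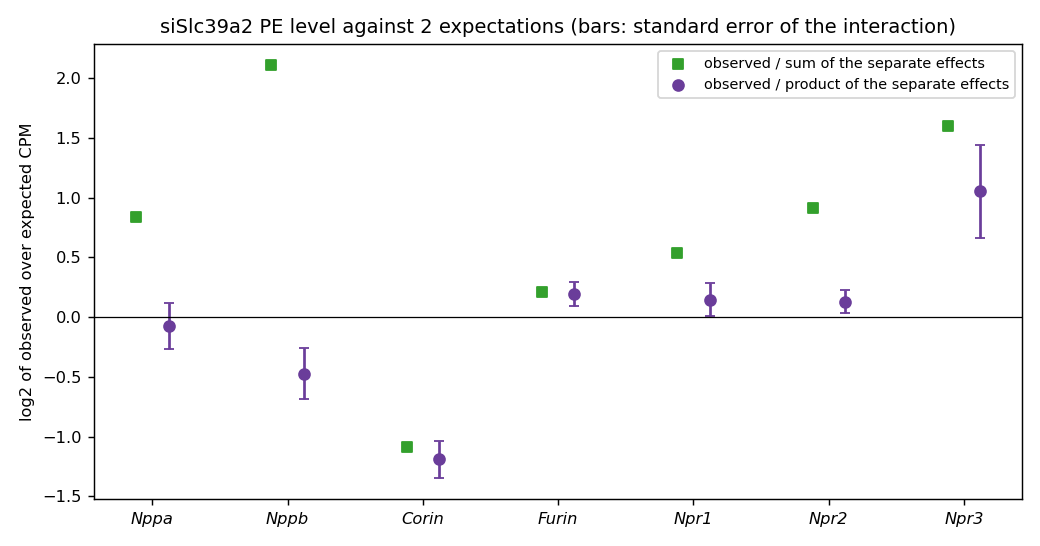
Log2 of the CPM measured in siSlc39a2 PE over the CPM that the sum of the separate effects (squares) or the product of the separate folds (circles, with bars of 1 standard error of the interaction) predicts, for each tested gene; 0 means measured as predicted. Nppa and Nppb lie above 0 against the sum and near or below 0 against the product, and Corin lies below 0 against both, at -1.19 against the product.

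Without PE, none of the 4 tested neighbours of Nppb and Nppa described here rose with knockdown. In RefSeq order these were Mfn2, Plod1 and RGD1305350 before the pair, and Clcn6 after it. With knockdown, Mfn2 fell by 0.23 and Plod1 by 0.63 on the log2 scale, RGD1305350 was at -0.17 (edgeR adjusted p = 0.144) and Clcn6, the chloride transporter gene beside Nppa, at -0.01 (adjusted p = 0.962). With PE in siNeg, Clcn6 rose by 0.41 (SE 0.08, adjusted p = 0.00171), and Mfn2, Plod1 and RGD1305350 fell by 0.31, 0.38 and 0.28. With knockdown in the presence of PE, Clcn6 rose by 0.21 (adjusted p = 0.0412). With PE in siNeg, these 4 genes thus moved by at most 0.41 on the log2 scale, against 4.63 for Nppa and 5.19 for Nppb.

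**Figure D5:**
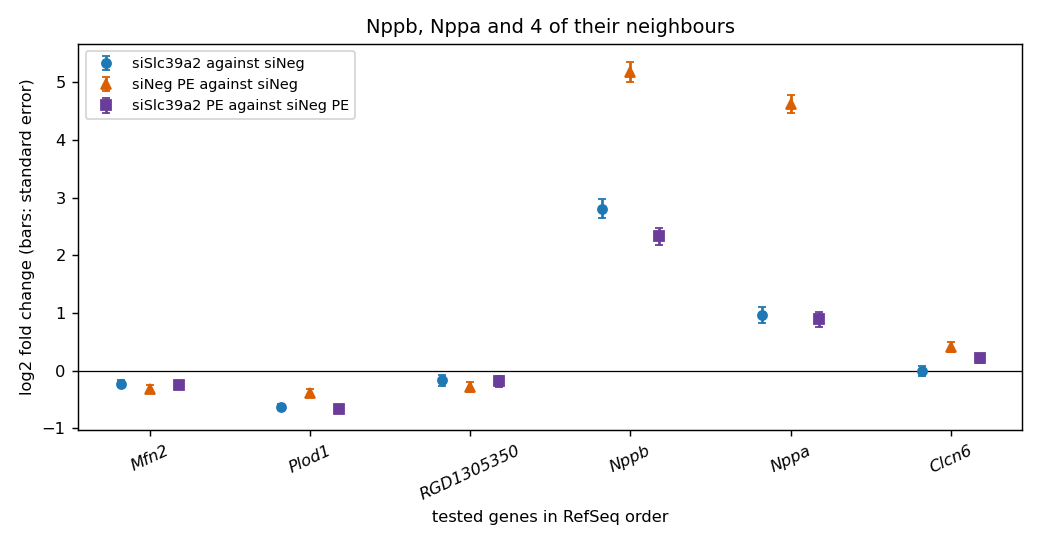
Log2 fold change (y axis, with bars of 1 standard error on each side) of Nppb, Nppa and 4 tested genes around them, in RefSeq order, with knockdown without PE, with PE in siNeg, and with knockdown in the presence of PE. Both ligands lie above 0 in the 3 comparisons, and Clcn6 is the only one of the 4 neighbours above 0 with PE, at 0.41.

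Corin, the cardiac protease that cleaves the ANP propeptide, was lowest with both treatments, by more than their separate effects predict on either scale. Its FPKM was 9.15, 10.1 and 10.7 in siNeg, 7.21, 6.67 and 8.38 in siSlc39a2, 10.5, 9.30 and 7.85 in siNeg PE, and 2.67, 2.69 and 2.75 in siSlc39a2 PE. The siSlc39a2 PE samples lay below all others and close together, while siNeg and siNeg PE overlapped. PE in siNeg gave a log2 fold change of -0.20 (SE 0.11, edgeR adjusted p = 0.142), which became -0.32 (adjusted p = 0.0255) without siNeg PE replicate 1. Knockdown lowered Corin by 0.56 without PE (SE 0.11, adjusted p = 0.000983) and by 1.75 with PE (SE 0.12, adjusted p = 7.37e-08). PE after knockdown lowered it by 1.39 (SE 0.11, adjusted p = 1.06e-06).

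The interaction for Corin was -1.19 on the log2 scale (SE 0.16, edgeR adjusted p = 0.00115), the only one of 7 members to pass, against 3.61% of all genes. Among 13967 genes it had the 55th smallest p. Under the alternative settings run it lay between -1.30 and -0.998, with an adjusted p of at most 0.00543. In CPM the sum of the separate effects predicted 26.7 and the product 28.7, and 12.6 was measured, 14.1 ± 4.66 CPM (SE) below the sum. Corin's counts were whole in 1 of 12 samples only, as where reads are shared out among features, and its values are less certain for it. The 6 atrial markers summed to 173 to 213 CPM in siNeg and 86.8 to 90.1 in siSlc39a2. With PE they summed to 224 to 240 CPM in siNeg PE and 79.6 to 90.6 in siSlc39a2 PE. Of 5 tested ones, 4 were lower with knockdown, both without PE (26.4% of all genes lower) and with PE (28.1%). PE lowered 3 of the 5 in siNeg (25.7% of all genes lower) and 3 after knockdown (29.3%). It raised 1, Myl4, by 0.89 on the log2 scale in siNeg and by 0.69 after knockdown. The part of these markers in the level of Corin was not tested.

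Furin, a convertase found in most cells, was not called in any comparison of the fit over all groups. Its FPKM was 82.3, 81.4 and 83.7 in siNeg, 88.3, 83.3 and 75.9 in siSlc39a2, 76.7, 79.0 and 75.5 in siNeg PE, and 84.6, 81.6 and 74.9 in siSlc39a2 PE. By FPKM the siNeg PE samples lay below siNeg, and the other groups overlapped it. By CPM, siNeg (346.2 to 361.8) lay above siSlc39a2 (289.9 to 345.1) and siNeg PE (305.6 to 318.4). It also lay above siSlc39a2 PE (302.2 to 344.0), so no group overlapped siNeg on that scale. The log2 fold change was -0.17 with PE (edgeR adjusted p = 0.053), -0.14 with knockdown (adjusted p = 0.108) and 0.05 with knockdown in the presence of PE (adjusted p = 0.566). Leaving out siSlc39a2 replicate 1 gave -0.20 with knockdown (adjusted p = 0.049). Fitting siNeg and siNeg PE alone gave -0.15 with PE (adjusted p = 0.0477), and a replicate block gave -0.17 with PE (adjusted p = 0.0121), -0.15 with knockdown (adjusted p = 0.0294) and -0.13 with both (adjusted p = 0.038).

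Both cyclase receptors fell in the 5 pairwise comparisons. Npr1, the receptor of ANP and BNP, had an FPKM of 3.08, 2.82 and 3.40 in siNeg, 2.40, 2.49 and 2.51 in siSlc39a2, 1.83, 2.12 and 2.23 in siNeg PE, and 1.59, 1.55 and 1.73 in siSlc39a2 PE. The siNeg samples lay highest and those of siSlc39a2 PE lowest, with no overlap. Npr1 fell by 0.68 on the log2 scale with PE (edgeR adjusted p = 0.000158), by 0.48 with knockdown (adjusted p = 0.00127), by 0.53 with PE after knockdown (adjusted p = 0.000622) and by 0.33 with knockdown in the presence of PE (adjusted p = 0.0124). Without siSlc39a2 PE replicate 2, this last value was -0.30 (adjusted p = 0.0517).

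Npr2, the cyclase receptor of C-type natriuretic peptide, fell in the same comparisons. Its FPKM was 11.2, 11.65 and 12.3 in siNeg, 7.84, 7.77 and 7.58 in siSlc39a2, 7.66, 7.56 and 7.73 in siNeg PE, and 5.20, 4.89 and 4.96 in siSlc39a2 PE. Each treatment alone brought it to about the same level, where the groups overlapped, and both together lower still. The log2 changes were -0.69 with PE (SE 0.07, edgeR adjusted p = 7.96e-06), -0.75 with knockdown (SE 0.07, adjusted p = 1.4e-06), -0.62 with knockdown in the presence of PE (SE 0.07, adjusted p = 8.97e-06) and -1.31 for both (SE 0.07, adjusted p = 3.56e-09). The interaction was 0.13 (interval -0.06 to 0.32) for Npr2 and 0.15 (interval -0.13 to 0.42) for Npr1. For Npr2 the sum of the separate losses predicted 9.67 CPM and the product 16.7 CPM, and 18.2 CPM was measured. The summed fibroblast markers given above were lower with knockdown and with PE, as both receptors were. Collagen genes weighed most in that sum, with siNeg means of 10760 (Col1a1), 3534 (Col3a1) and 1746 CPM (Col1a2). Of the 9 markers, knockdown lowered 6 and raised 1, Tcf21, by 0.34 (26.4% of all genes lower, 22.8% higher). PE in siNeg lowered 4 and raised 2, Dcn by 0.44 and Pdgfra by 0.74 (25.7% of all genes lower, 24% higher). The mural marker sum given above was also lower with knockdown without PE and with PE in siNeg. Knockdown without PE lowered 6 of its 6 genes, where it lowered 26.4% of all genes. In the presence of PE, knockdown lowered 1 of the 6 (28.1% of all genes), and the sums overlapped. PE after knockdown raised 3 of the 6 and lowered 2 (30.7% and 29.3% of all genes), and the mural sum was higher, while both receptors fell. The 6 macrophage markers present summed to 85.1 to 122 CPM in siNeg, 45.0 to 56.8 in siSlc39a2, 41.3 to 54.5 in siNeg PE and 33.9 to 39.7 in siSlc39a2 PE. Their part in the receptor levels was not tested.

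Npr3, the clearance receptor, was low and varied within groups. Its FPKM was 0.37, 0.78 and 0.59 in siNeg, 0.49, 0.39 and 0.74 in siSlc39a2, 0.21, 0.21 and 0.36 in siNeg PE, and 0.59, 0.44 and 0.57 in siSlc39a2 PE. In FPKM the siNeg PE samples were lowest, and the other groups overlapped. In CPM, siNeg PE (1.76 to 2.02) lay just below siNeg (2.05 to 4.22) and overlapped siSlc39a2 (1.73 to 3.09). Npr3 fell by 0.83 on the log2 scale with PE in siNeg (SE 0.28, edgeR adjusted p = 0.0242). The call was lost without siNeg replicate 2 (adjusted p = 0.0783) or 3 (0.098), or siNeg PE replicate 2 (0.0763) or 3 (0.0532). After knockdown PE gave 0.23 (adjusted p = 0.482), and knockdown gave -0.50 without PE (adjusted p = 0.143; -0.76 and 0.0204 without siNeg replicate 1) and 0.56 with PE (adjusted p = 0.0993). The interaction was 1.06 (SE 0.39, interval 0.29 to 1.84, unadjusted p = 0.0169, adjusted p = 0.186), and 1.32 with an adjusted p of 0.0425 without siNeg replicate 1. The counts of Npr3 were whole in 4 of 12 samples only, and its length as implied by count and FPKM ran from 4.45 to 9.01 kb, a 2.03-fold range, against at most 1.05-fold for the other members. The FPKM of Npr3 is therefore divided by a length that differs between samples.

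The log2 ratio of Npr3 to Npr1 was -2.46 ± 0.59 (SD, n = 3) in siNeg, -2.22 ± 0.45 in siSlc39a2, -2.98 ± 0.35 in siNeg PE and -1.60 ± 0.19 in siSlc39a2 PE. It was 0.81 higher with knockdown (exact permutation test, p = 0.035, adjusted p = 0.0467) and 0.05 higher with PE (exact permutation test, p = 0.865). In CPM, which are not divided by a length, the knockdown difference was 0.44 (exact permutation test, p = 0.135). Without 1 sample the FPKM difference ran from 0.67 to 0.96, with exact permutation p-values of 0.015 to 0.075.

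The wider pathway was taken as 5 lists, whose counts are to be read against the 49.2% of all genes called with knockdown (22.8% up, 26.4% down) and 49.7% with PE (24% up, 25.7% down). Of 5 tested genes that process or degrade the peptides, knockdown raised 1 and lowered 2, and PE raised 3 and lowered 1. Dpp4, a serum and cell-surface peptidase, fell by 2.33 with knockdown (SE 0.39, edgeR adjusted p = 0.000326), from a low mean of 1.88 to 0.37 CPM. Pcsk6, a convertase that activates corin, fell by 1.08 without PE (SE 0.07, adjusted p = 4.68e-08), while Pam, which amidates peptides, rose by 0.16 (adjusted p = 0.0447). With PE, Mme, which encodes neprilysin, fell by 0.97 (SE 0.25, edgeR adjusted p = 0.00663), from a low mean of 1.95 to 0.99 CPM. Pam rose by 0.67 with PE and Ide, the insulin-degrading enzyme, by 0.35, the last with counts that were not whole. Pcsk6 rose with PE, by 0.31 in siNeg and by 0.95 after knockdown, with an interaction of 0.63 (edgeR adjusted p = 0.00277). Knockdown in the presence of PE lowered Pcsk6 by 0.45, and siSlc39a2 PE stood at -0.14 against siNeg (edgeR adjusted p = 0.0814). Of 3 other guanylyl cyclase genes and nitric oxide synthases, knockdown lowered 1, Gucy1a1, a subunit of the soluble cyclase, by 0.65 (adjusted p = 0.0048). PE raised Gucy1b1, its partner subunit, by 1.15 (adjusted p = 0.00026) and lowered Nos3, whose counts were not whole, by 1.06 (adjusted p = 0.0433). Nos3 was low, with a mean of 0.54 CPM in siNeg and 0.25 in siNeg PE.

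Downstream of cGMP, 8 effector and exporter genes were tested: knockdown raised 1 and lowered 2, and PE raised 3 and lowered 3, beside 49.2% and 49.7% of all genes called. Rgs2, a regulator of G protein signalling, rose by 0.77 with knockdown (edgeR adjusted p = 0.000101) and by 1.23 with PE (adjusted p = 4.93e-06), with counts that were not whole. The exporters Abcc5 and Abcc4 fell by 0.75 and 0.38 with knockdown, and with PE phospholamban (Pln) fell by 0.61 and the cGMP-dependent kinase Prkg1, whose counts were not whole, rose by 0.44. Of 7 phosphodiesterase genes that break down cGMP, knockdown raised 2 and lowered 2, and PE raised 4 and lowered 1, beside the same shares of all genes. Pde9a rose by 0.70 with knockdown (adjusted p = 0.038) and fell by 0.73 with PE (adjusted p = 0.0497), Pde10a and Pde1a fell by 0.73 and 0.64 with knockdown, and Pde3b and Pde5a rose by 0.87 and 0.80 with PE. The level of Pde9a was low, with means of 0.96 CPM in siNeg, 1.57 in siSlc39a2 and 0.58 in siNeg PE.

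Of 15 genes for transcription factors known to act on Nppa and Nppb, knockdown raised 3 and lowered 2, and PE raised 4 and lowered 3. Of all genes, 49.2% were called with knockdown and 49.7% with PE. Myocd (myocardin, a coactivator of SRF) rose by 0.71 with knockdown (edgeR adjusted p = 0.0018) and by 0.75 with PE (adjusted p = 0.00158). Hand2 rose by 0.62 and Mef2d fell by 0.57 with knockdown, and Tbx20 and Tead1 rose by 0.90 and 0.50 with PE. Gata4 was at -0.07 with knockdown (adjusted p = 0.439) and -0.06 with PE (adjusted p = 0.475). Srf and Gata4 are named outside the rule, chosen after their values were seen. Srf fell by 0.44 with knockdown and by 0.33 with PE, with an interaction of 0.46 (adjusted p = 0.00551). The median log2 change of the list was 0.06 with knockdown and 0.16 with PE, beside -0.02 and -0.01 over all genes tested.

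The genes most like each member were found by the Pearson correlation of log2 CPM over the 12 samples among 11748 genes, which share libraries and the group structure. For Nppa they were Sik1 (0.994), Nrap (0.993) and Sfrp1 (0.993), and for Nppb Ripor2 (0.994), B3galt2 (0.988) and Ankrd1 (0.988). Ankrd1 averaged 363 CPM in siNeg, 847 in siSlc39a2, 1814 in siNeg PE and 5751 in siSlc39a2 PE. For Corin they were Atp2a2, which encodes the sarcoplasmic reticulum calcium pump, Ccng2 and Kcnd2 (each 0.987). Atp2a2 averaged 7967 CPM in siNeg, 6515 in siSlc39a2, 7051 in siNeg PE and 4072 in siSlc39a2 PE. For Npr1 they were Plac9 (0.982), Ptbp1 (0.975) and Creb3l1 (0.974), and for Npr2 Maged1 (0.998), Cmtm3 (0.996) and Epas1 (0.994). For Furin they were Uba1 (0.923), Gorasp2 (0.904) and Glmp (0.903), and for Npr3 Emp1 (0.843), Flt1 (0.785) and Tnfrsf11b (0.784). Ripor2, Kcnd2 and Gorasp2 had counts that were not whole. Among the members, Nppa and Nppb correlated at 0.959, Npr1 and Npr2 at 0.951, and Nppb and Npr1 at -0.965, over the same 12 samples.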

How the data were processed

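RNA-seq of NRVMs, 3 samples in each of 4 groups, was analysed from tables made by the authors. Per the labels' processing notes, HISAT and Bowtie2 were used with build Rnor_6.0; the counting program and annotation are not given in the sources used here. The deposited tables give expected counts (estimated, not always whole) and FPKM per gene. Expected counts were rounded and tested in R 4.3.3 with edgeR 4.0.16 (TMM, filterByExpr, quasi-likelihood F-test over all 4 groups, Benjamini-Hochberg over 13967 genes). Totals were 24065539 to 28603854. Ratios were log2 of FPKM plus 0.01 with exact permutation tests. Scripts were tested on simulated data. The members and gene lists were chosen with earlier results of these data known.

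Named were all 8 members and, per pathway list, up to 3 called genes with the largest change with knockdown and with PE, the 3 genes most correlated with each member (mean log2 CPM above 1) and 4 RefSeq neighbours on each side of the ligand pair. A neighbour is not reported here. Alternatives were DESeq2 1.42.0, DESeq2-style size factors, no filter, the compared groups alone, a replicate block, limma 3.58.1 on log2 of FPKM or counts plus a pseudocount, and leaving out each sample. Marker sums were in CPM. The labels do not say that replicate numbers pair the samples, so the block is an alternative only.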

Additional observations from a re-analysis of the deposited data

Results flagged for a closer look

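Corin is listed because the knockdown effect differed between cells with and without PE by a test of the difference itself. The log2 difference of the effects was -1.19 (edgeR adjusted p = 0.00115), from a fall by 0.56 without PE and by 1.75 with PE, and all 3 siSlc39a2 PE samples lay below all others. Its counts were whole in 1 of 12 samples.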

How the results depend on the processing

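Of 42 combinations of member and comparison, 33 kept their side of the threshold under all alternatives run, and 24 of 26 called ones did so. None changed direction while called. Without 1 sample, the number of members called ranged from 5 to 6 for knockdown, 4 to 6 for PE, 4 to 5 for knockdown with PE, 5 for PE after knockdown and for both treatments, and 1 to 2 for the interaction. The interaction count was 2 without siNeg replicate 1, where Npr3 joined Corin. For Nppb to Nppa the PE difference ranged from 0.29 to 0.47 without 1 sample. For Npr3 to Npr1 the knockdown difference in FPKM ranged from 0.67 to 0.96 without 1 sample, and in CPM with all samples it was 0.44. For Npr3, knockdown with PE passed with the compared groups alone (0.56, adjusted p = 0.0389) and with limma on log2 of FPKM plus 1 or 0.1 (0.26 and 0.78, adjusted p = 0.0287 and 0.0142). The cause was not tested.

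Samples with the same replicate number deviated together unevenly: correlations over pairs ran from -0.0904 to 0.32, were not above 0.1 in every pair of any comparison, and do not establish that the numbers pair the samples. A sample correlated best with its own number in 19 of 36 cases. With the replicate block, 6, 6, 5, 5 and 6 of 7 members were called in the 5 pairwise comparisons, in the order above, and 1 in the interaction; Furin was added in 3 of them. Depth limits Nppc and Npr3, and with 3 samples a group the ratio tests cannot give a p below 0.005.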
